A study of Mus musculus with 12 samples.

Results

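The major urinary protein (MUP) family was followed in mouse liver RNA through its 6 named members Mup3, Mup4, Mup5, Mup8, Mup20 and Mup21. They were taken as the rows of the deposited count files that carry these symbols, and all 6 were found among 24062 gene rows. All 6 also had enough counts to be among the 12015 genes tested. Another 14 rows carry a symbol of Mup followed by digits, 8 of which were tested, and they are set beside the members because the copies of this family resemble each other closely.

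The study asked how loss of LRH-1, the nuclear receptor encoded by Nr5a2, alters gene expression in adult liver. It covers 12 liver libraries of 14-week-old males, all with floxed Nr5a2 alleles on a mixed background (129SvEV-C57BL/6). After 6 weeks on a high-fat diet (HFD) there were 2 knockout libraries, from mice given Cre recombinase by the viral vector AAV8-Cre, and 4 control libraries. On the standard diet (SD), over the same time, there were 3 knockout and 3 control libraries. Per the series' design text the controls received AAV8-eGFP. AAV8 delivers genes mainly to hepatocytes, and no promoter driving Cre is named in the labels. Separate mice are not stated in words in the labels, so every p-value below refers to the spread among libraries, which may be technical.

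MUPs are small secreted lipocalins, barrel-shaped carriers that hold volatile ligands. Hepatocytes of male mice make them in large amounts, the kidney passes them into urine, and there they release pheromones slowly and mark the individual. Their liver expression is known to depend on pulses of growth hormone acting through STAT5, and on androgens, glucocorticoids and thyroid hormone. The genes lie in 1 cluster on chromosome 4, where many near-identical copies stand in its middle and more divergent ones at its edges.

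Promoter sequence from RefSeq (build GRCm38.p6) was found for 3 of the 6 members, Mup4, Mup3 and Mup21. Their 250 bases before the annotated start are shown because these promoters are closely related, and yet in SD knockouts Mup3 fell while Mup4 rose and Mup21 was higher without passing the test. The Mup4 rise rests on 9 to 11 counts per SD control library, and its call was lost without SD control 3. All are on the minus strand and are written 5′ to 3′ in the direction of transcription: Mup4 at chr4:59960668-59960917, Mup3 at chr4:62087318-62087567 and Mup21 at chr4:62150842-62151091. Capitals mark, from left to right, the LRH-1 motif AAGGTCA and the TATA box TATAAA in Mup4, and the bases aligned with them in the other 2.
Mup4: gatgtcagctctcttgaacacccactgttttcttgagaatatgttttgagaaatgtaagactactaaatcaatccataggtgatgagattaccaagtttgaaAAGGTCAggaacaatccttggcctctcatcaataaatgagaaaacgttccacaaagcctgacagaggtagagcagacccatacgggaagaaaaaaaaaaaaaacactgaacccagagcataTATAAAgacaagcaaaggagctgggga
Mup3: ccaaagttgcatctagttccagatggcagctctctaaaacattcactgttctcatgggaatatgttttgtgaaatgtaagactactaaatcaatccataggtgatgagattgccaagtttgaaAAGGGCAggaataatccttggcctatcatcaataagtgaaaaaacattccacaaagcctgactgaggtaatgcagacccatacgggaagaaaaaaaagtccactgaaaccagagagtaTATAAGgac
Mup21: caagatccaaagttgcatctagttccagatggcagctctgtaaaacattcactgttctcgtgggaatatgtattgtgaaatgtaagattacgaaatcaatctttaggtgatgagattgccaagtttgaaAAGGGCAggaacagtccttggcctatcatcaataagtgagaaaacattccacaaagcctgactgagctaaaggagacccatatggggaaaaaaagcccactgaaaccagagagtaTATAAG
Aligned over these windows, Mup3 and Mup21 were 93.4% identical, Mup4 and Mup3 88.6%, and Mup4 and Mup21 84.8%. The Mup4 window held AAGGTCA from base -148 to -142 before its start. Mup3 and Mup21 carry AAGGGCA at the aligned place, the substitution T5G counted from 1 at the motif's 5′ end. The bases aligned with the Mup4 TATA box read TATAAG in both, the substitution A6G on the same count. They lie at -9 to -4 in Mup3 and -6 to -1 in Mup21, against -27 to -22 in Mup4, so the annotated starts are placed differently along the aligned sequence. Only the exact letters TATAAA were searched for a TATA box. The substitution therefore does not show that Mup3 and Mup21 lack a TATA box. Searched on both strands in the same 250-base windows, AAGGTCA occurred in 4.08% of 32851 mouse promoters and TATAAA in 12.4%. The STAT5 motif TTCNNNGAA, found in 7.02% of promoters, was in none of the 3 windows, nor was CCAAT (33.8%) or the HNF1 motif GTTAAT (6.43%). The glucocorticoid receptor motif TGTTCT, found in 16.1% of promoters, was in the Mup3 and Mup21 windows. No 2 of these matches overlapped within a promoter. A match describes letters in a window and shows no binding.

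Total counts per library were 7463792 to 10875478 on HFD and 2371167 to 3404570 on SD. Counts on the ribosomal RNA gene Rn45s made up 0.985% to 1.32% on HFD and 0.291% to 0.460% on SD, and those on ribosomal protein genes 0.713% to 0.842% and 0.162% to 0.208%. Diet cannot be told apart from whatever else set these libraries apart. Nr5a2 itself was not lower in the knockout libraries, with 69.1 and 84.5 CPM, the count scaled to the normalized library size, in HFD knockouts, against 77.0, 74.5, 64.3 and 66.8 CPM in HFD controls. In SD knockouts it had 95.3, 100.1 and 94.7 CPM, against 84.4, 74.8 and 85.8 CPM in SD controls. A count over the whole gene does not resolve a deleted exon, so this row does not check the deletion, and "knockout" below means the libraries so labelled. Of 11 tested genes of a list of LRH-1 targets, 8 fell in HFD knockouts and 9 in SD knockouts, where 1.66% and 2.94% of all genes tested were lower. That list was chosen with earlier results of these data known, so it is no independent check of the deletion. The 6 hepatocyte markers were abundant throughout, with a summed level of 122642 to 168680 CPM in HFD knockouts, against 103112 to 108253 CPM in HFD controls, and 101380 to 152859 CPM in SD knockouts, against 106980 to 136007 CPM in SD controls. Most of each sum was Alb, with means of 120467 CPM in HFD knockouts and 82006 CPM in HFD controls. The means of Ttr and Hnf4a were also higher in HFD knockouts than in HFD controls, and those of Apoa1, Serpina1c and Cps1 were lower. Of the 6 markers, 1 passed as higher in HFD knockouts, Ttr, the carrier transthyretin (log2 fold change 0.64, edgeR adjusted p = 0.0116), and its part in the family's values was not tested.

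The make-up of the counts on Mup rows differed between knockout and control livers. Mup3 fell on both diets, Mup20 rose on SD and averaged over the diets, and the sums of the 6 members overlapped between knockout and control livers. The 6 members together had 15121 and 26745 CPM in HFD knockouts, against 20754, 11866, 17018 and 11596 CPM in HFD controls. In SD knockouts they had 8044, 7761 and 9819 CPM, against 7787, 8572 and 7522 CPM in SD controls. The groups overlapped on each diet. The ratio of the group means, as a description with no test, was 1.37 on HFD and 1.07 on SD. Its log2 value turned sign without HFD knockout 2 (-0.018, against 0.45 with all HFD libraries) and without SD knockout 3 (-0.011, against 0.10 with all SD libraries).

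Mup20 was the leading member in every knockout library. It made up 87.5% and 84.6% of all counts on Mup rows in HFD knockouts, against 31.1% to 74.9% in HFD controls, and 33.6% to 43.8% in SD knockouts, against 11.0% to 17.7% in SD controls. Mup3 took 8.27% and 7.54% of them in HFD knockouts, against 17.1% to 52.8% in HFD controls, and 18.5% to 26.2% in SD knockouts, against 58.9% to 70.5% in SD controls. On neither diet did the knockout and control ranges of these shares overlap. They are shares of the counts assigned to rows. Mup11, Mup16, Mup17 and Mup19 had 0 counts in every library, and how reads matching several copies were counted is not given.

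**Figure D1:**
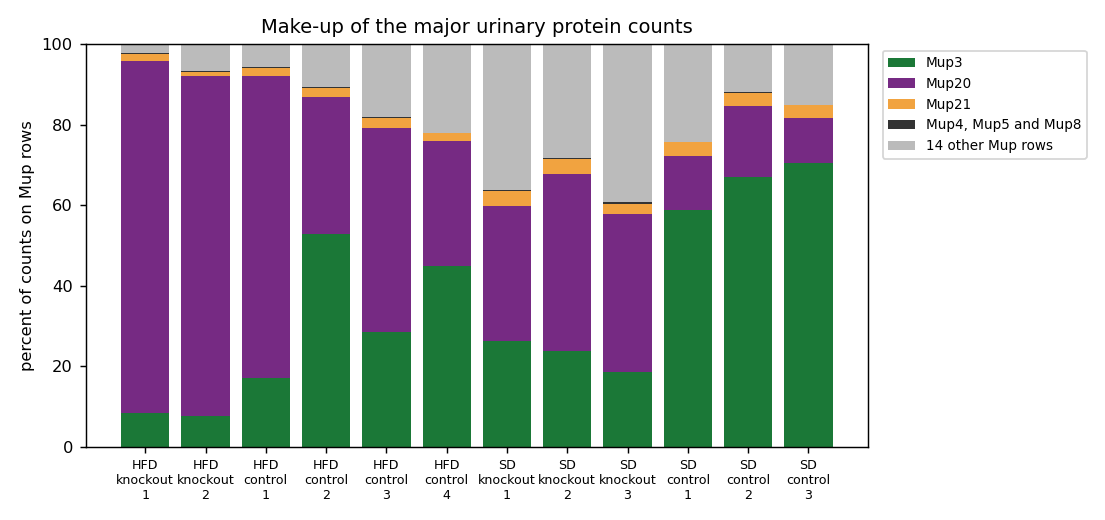
Stacked bars give the percent of counts on all 20 Mup rows taken by Mup3, Mup20, Mup21, the sum of Mup4, Mup5 and Mup8, and the 14 other Mup rows, 1 bar per library. Mup20 takes 84.6% and 87.5% in the 2 HFD knockout libraries, and Mup3 takes 58.9% to 70.5% in the 3 SD control libraries.

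Levels per kilobase of transcript adjust for length but not for reads shared between copies. On that scale the ratio of Mup20 to Mup3 was 11.2 and 11.9 in HFD knockouts, against 4.64, 0.681, 1.89 and 0.735 in HFD controls. In SD knockouts this ratio was 1.36, 1.95 and 2.25, against 0.240, 0.280 and 0.166 in SD controls. By this ratio Mup3 stood above Mup20 in all SD control libraries and in HFD controls 2 and 4, and below it in the other 7 libraries. Of 50-base windows, 49.9% of those of Mup20 and 84.4% of those of Mup3 were found in no other copy. Whether a scale that allows for shared reads would change this order, as in HFD controls 2 and 4, was not tested. The order of mean levels per kilobase was Mup20, Mup3, Mup21 in HFD knockouts (20357 ± 8184, 1749 ± 637 and 413 ± 22.3 CPM per kb), in HFD controls (9743 ± 6157, 5941 ± 1479 and 573 ± 153) and in SD knockouts (5504 ± 1180, 3008 ± 372 and 645 ± 32.4). In SD controls it was Mup3, Mup20, Mup21 (6382 ± 240, 1463 ± 401 and 465 ± 43.4 CPM per kb; all SD, n as above). Mup20 and Mup3 did not differ beyond their spread in HFD controls. Mup4, Mup5 and Mup8 stood far below, with means of 1.87 to 22.04 CPM per kb and an order that changed with the group. Neighbours in that order lay within each other's spread, except that Mup4 stood above Mup8 in HFD knockouts (18.01 ± 5.00 and 3.69 ± 4.22 CPM per kb) and in HFD controls (14.3 ± 2.28 and 4.74 ± 2.94).

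**Figure D2:**
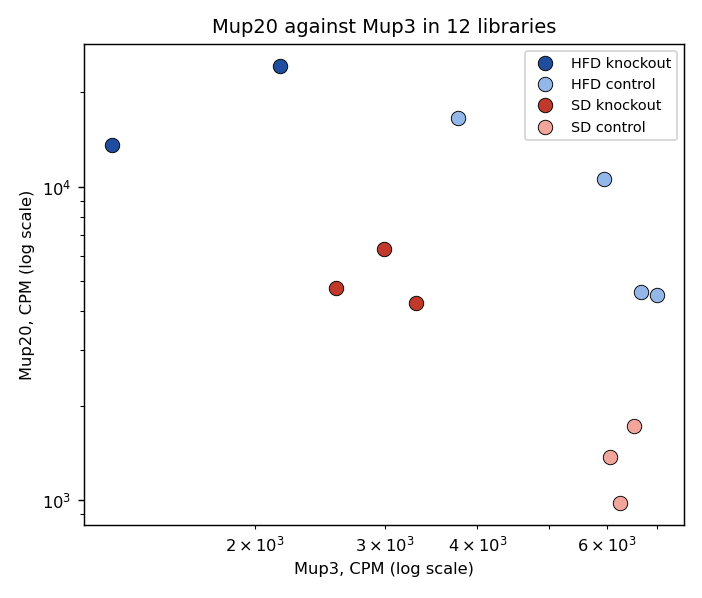
Each point is 1 library, with Mup3 on the x axis and Mup20 on the y axis, both in CPM on log scales, coloured by group. Knockout libraries lie to the left of the controls of their diet, and HFD control 1 (3769 CPM of Mup3, 16491 CPM of Mup20) lies nearest to the HFD knockouts.

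Mup3, a gene at the edge of the cluster with high liver expression, was the member that fell on both diets. It had 1278 and 2164 CPM in HFD knockouts, against 3769, 7013, 5932 and 6668 CPM in HFD controls. In SD knockouts it had 3307, 2578 and 2994 CPM, against 6059, 6528 and 6252 CPM in SD controls. Every knockout library was below every control library of its diet. The log2 fold change was -1.76 ± 0.25 (SE) on HFD (3.40-fold lower, adjusted p = 0.00104, edgeR quasi-likelihood test with Benjamini-Hochberg adjustment over all genes tested, as for all adjusted p-values below). On SD the log2 fold change was -1.09 ± 0.21 (2.12-fold lower, edgeR adjusted p = 0.00908). The HFD call held in all 19 alternatives run, and the SD call was lost in 1 of 19, without SD knockout 2 (-0.996, edgeR adjusted p = 0.0556).

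Mup20, which encodes darcin, the MUP that draws females to male urine and fixes the memory of its place, moved the other way. It had 13521 and 24262 CPM in HFD knockouts, against 16491, 4501, 10554 and 4620 CPM in HFD controls. In SD knockouts it had 4243, 4741 and 6339 CPM, against 1373, 1722 and 978 CPM in SD controls. The SD groups did not overlap, whereas HFD control 1 was above HFD knockout 1. On HFD the log2 fold change of 1.06 ± 0.41 did not pass (edgeR adjusted p = 0.231). On SD it was 1.91 ± 0.41 (3.76-fold higher, edgeR adjusted p = 0.0154). The HFD value passed without HFD control 1 (1.53, edgeR adjusted p = 0.0183) and with no filter on low counts (1.05, edgeR adjusted p = 0.0337). The SD call was lost without SD control 3 (1.72, edgeR adjusted p = 0.0980) or SD knockout 3 (1.72, edgeR adjusted p = 0.0684). By mean CPM, Mup20 ranked 3 among all gene rows in HFD knockouts, 8 in HFD controls, 15 in SD knockouts and 82 in SD controls. Mup3 ranked 63, 17, 32 and 12 in the same groups.

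**Figure D3:**
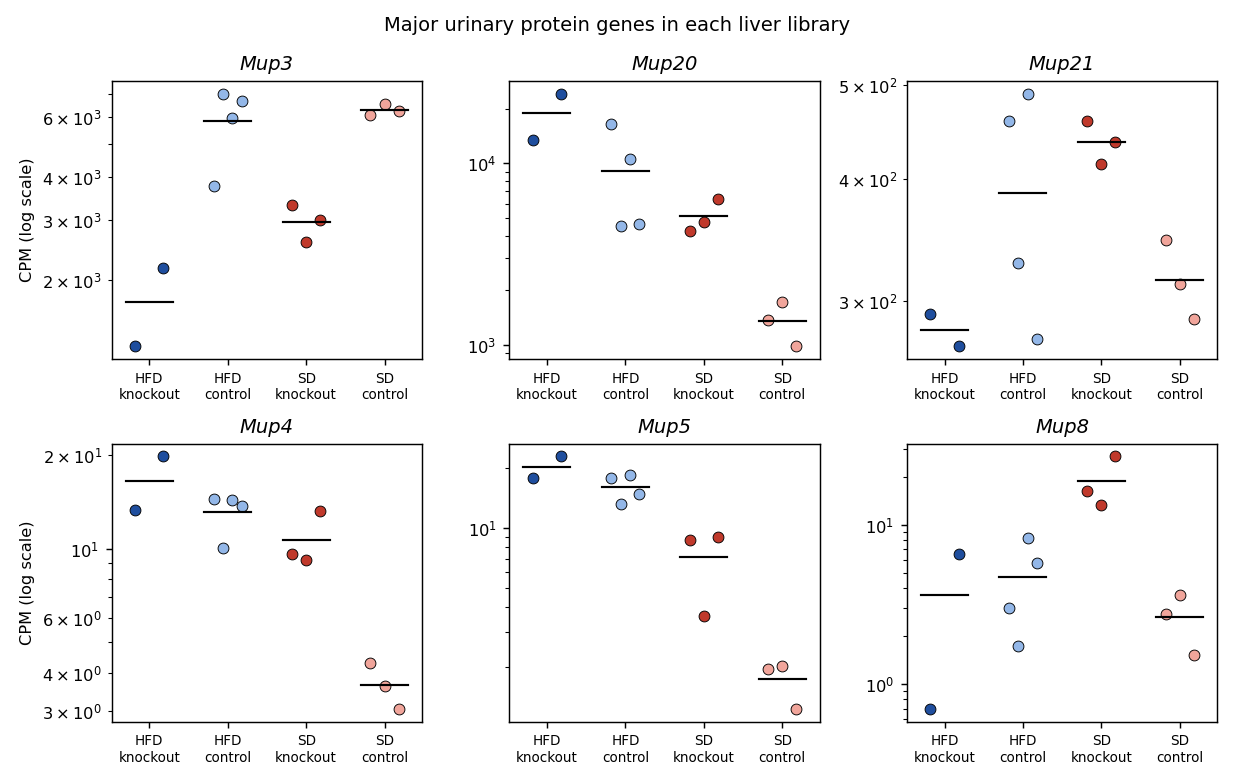
Points give each library's CPM on a log scale for the 6 members, with HFD groups left of SD groups and knockouts left of controls, and the bar marks the group mean. Mup3 is lower in knockouts than in controls on both diets, and the other 5 members are higher in all 3 SD knockout libraries than in all 3 SD controls.

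Mup21, the closest relative of Mup3 in sequence, did not follow it. It had 291 and 269 CPM in HFD knockouts, against 459, 328, 490.0 and 274 CPM in HFD controls. In SD knockouts it had 459, 415 and 436 CPM, against 346, 312 and 287 CPM in SD controls. The HFD groups overlapped, and the SD groups did not. The log2 fold changes, -0.47 ± 0.19 on HFD (edgeR adjusted p = 0.243) and 0.47 ± 0.18 on SD (edgeR adjusted p = 0.159), did not pass and had opposite signs. With only the SD groups in the fit, the SD value passed (0.49, edgeR adjusted p = 0.0149).

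Mup4 and Mup5, which in the mouse are best known from nasal, lacrimal and salivary glands, were at low levels in these livers, 1.22 to 23.0 CPM. Mup4 had 13.3 and 19.9 CPM in HFD knockouts, against 14.4, 10.1, 14.4 and 13.8 CPM in HFD controls. In SD knockouts it had 9.67, 9.21 and 13.2 CPM, against 4.30, 3.62 and 3.05 CPM in SD controls. The groups overlapped on HFD and were apart on SD. The log2 fold change of Mup4 was 0.34 ± 0.20 on HFD (edgeR adjusted p = 0.501) and 1.56 ± 0.30 on SD (2.96-fold higher, edgeR adjusted p = 0.00797). Without SD control 3 the SD call was lost (1.43, edgeR adjusted p = 0.0585).

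Mup5 had 17.8 and 23.0 CPM in HFD knockouts, against 17.8, 13.2, 18.5 and 14.8 CPM in HFD controls. In SD knockouts Mup5 had 8.67, 3.60 and 9.06 CPM, against 1.95, 2.01 and 1.22 CPM in SD controls, which are only 4 to 5 counts per control library. Again the groups overlapped on HFD and not on SD. Its log2 fold change was 0.34 ± 0.21 on HFD (edgeR adjusted p = 0.530) and 2.09 ± 0.41 on SD (4.25-fold higher, edgeR adjusted p = 0.00925). The SD call was lost without SD control 3 (1.86, edgeR adjusted p = 0.0711) or SD knockout 3 (1.88, edgeR adjusted p = 0.0532).

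Mup8, 1 of the near-identical genes of the middle of the cluster, had 0.695 and 6.58 CPM in HFD knockouts, against 2.99, 1.74, 8.24 and 5.72 CPM in HFD controls. In SD knockouts Mup8 had 16.3, 13.2 and 26.8 CPM, against 2.73, 3.62 and 1.53 CPM in SD controls. It was higher in each SD knockout than in every library of the other 3 groups. The log2 fold change was -0.29 ± 0.61 on HFD (edgeR adjusted p = 0.900) and 2.88 ± 0.70 on SD (7.36-fold higher, edgeR adjusted p = 0.0294). This SD call was the least stable of the family: it was lost without SD control 1, 2 or 3 (edgeR adjusted p = 0.0720, 0.0733 and 0.150) and without SD knockout 2 or 3 (0.0517 and 0.123). On HFD the sign of the Mup8 value turned in 4 of 19 alternatives.

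**Figure D4:**
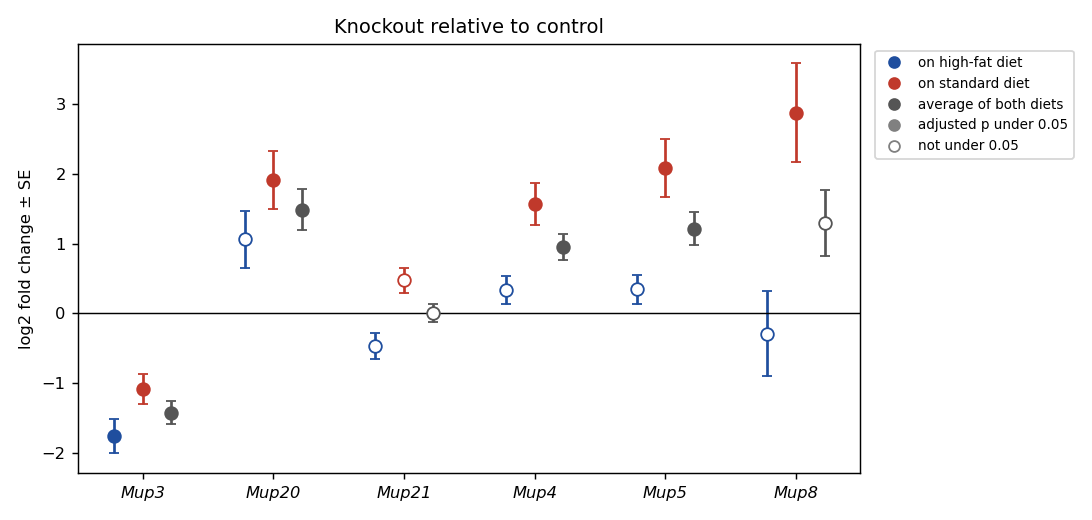
Points give the log2 fold change of knockout against control for each member on HFD, on SD and averaged over the diets, with bars of 1 SE, and filled points have an adjusted p under 0.05. Mup3 is below 0 and filled in all 3, at -1.76, -1.09 and -1.42.

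Counted over the family, 1 of 6 members passed in HFD knockouts, where 2.7% of all genes tested passed (1.04% higher, 1.66% lower), and it was lower. In SD knockouts 5 of 6 passed, 4 higher and 1 lower, where 4.38% of all genes passed (1.44% higher, 2.94% lower). The median log2 fold change of the members was 0.02 on HFD, against -0.01 for all genes tested, and 1.74 on SD, against 0 for all genes. Knockout and control libraries did not overlap for 1 of 6 members on HFD, which was lower (22.2% of all genes, 10.3% higher and 11.9% lower), and for 6 of 6 on SD, 5 higher and 1 lower (22.6% of all genes, 10.3% higher and 12.3% lower). Of the 5 SD calls, each was lost when at least 1 SD library was left out, so that 1 to 5 members passed across those fits. The lowest number, 1, came without SD control 3, and 2 and 3 passed without SD knockout 3 and SD knockout 2.

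Averaged over the diets, 4 of 6 members passed, where 8.36% of all genes did (3% higher, 5.36% lower). Mup3 fell (log2 fold change -1.42 ± 0.16, edgeR adjusted p = 5.97e-05). Mup20 (1.49 ± 0.29, edgeR adjusted p = 0.00429), Mup5 (1.21 ± 0.23, edgeR adjusted p = 0.00398) and Mup4 (0.95 ± 0.18, edgeR adjusted p = 0.00374) rose. These 4 calls held in all 18 alternatives run. Mup8 had 1.29 ± 0.48 (edgeR adjusted p = 0.117), which passed without HFD knockout 1 (1.70, edgeR adjusted p = 0.0217) and with no filter on low counts (1.29, edgeR adjusted p = 0.0195). Mup21 had 0.00 ± 0.13 (edgeR adjusted p = 1.00). The average weighs each diet equally and uses the same libraries as the separate comparisons.

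The knockout effect was lower on HFD than on SD for all 6 members in sign, but no member passed the test of that difference. The differences (HFD minus SD, log2) were -0.68 ± 0.31 for Mup3, -0.85 ± 0.59 for Mup20, -0.94 ± 0.26 for Mup21, -1.23 ± 0.37 for Mup4, -1.74 ± 0.48 for Mup5 and -3.17 ± 0.95 for Mup8. The edgeR adjusted p-values were 0.408 to 0.807, and 5 of the 6 unadjusted p-values were under 0.05. Of all genes tested, 0% passed by edgeR, 911 had an unadjusted p under 0.05, and DESeq2 called 30, with 0 of the members among them. So a call on one diet and not on the other does not show that the members responded differently by diet. For Mup3 a negative difference means a larger fall on HFD, and for the others a smaller rise or a fall.

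Reads of paralogs limit what a single row can say. Among 49 Mup genes and pseudogenes of the GENCODE annotation (GRCm38), the share of 50-base windows found in no other copy was 87.6% for Mup4, 84.4% for Mup3, 83.9% for Mup5, 80.7% for Mup21, 49.9% for Mup20 and 13.1% for Mup8. Mup8 was 99.6% identical to Mup14 over its transcript, so its row is uncertain. Mup3 was 96.1% identical to Mup21 and 88.8% to Mup20, Mup4 92.8% to Mup5 and 91.6% to Mup20. Counts on Mup4 were 0.0819% to 0.313% of those on Mup20 over all libraries, and counts on Mup5 0.0760% to 0.321%. Whether reads of Mup20 were counted on these low rows was not tested. The rows carry the submitters' symbols, and in RefSeq Mup3 is also an older symbol of Mup7, Mup4 of Mup2, Mup5 of Mup8, and Mup8 of Mup10 and Mup19.

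The sum over all 20 Mup rows does not depend on how counted reads were split among them. It does depend on whether reads matching several copies were counted at all, which is not given. Annotated copies without a row, such as Mup18 and Mup22, are not in it. The sum was 15459 and 28690.2 CPM in HFD knockouts, against 22013, 13277, 20818 and 14864 CPM in HFD controls, which overlap. In SD knockouts it was 12638, 10819.9 and 16187 CPM, against 10290.7, 9746 and 8869 CPM in SD controls, which do not overlap. The ratio of means was 1.24 on HFD and 1.37 on SD. On SD the rows outside the 6 members made the difference to the members' own ratio of 1.07: together they had 4594, 3059 and 6369 CPM in SD knockouts, against 2504, 1174 and 1347 CPM in SD controls. On HFD those rows had 337 and 1945 CPM in knockouts, against 1259, 1410.3, 3800 and 3268 CPM in controls.

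Mup7 held most of those counts in every library but HFD knockout 1, where Mup14 had more (151 CPM). Mup7 had 98.9 and 1399 CPM in HFD knockouts, against 949, 1225, 3133 and 2793 CPM in HFD controls. In SD knockouts Mup7 had 3380.1, 2440.4 and 4736 CPM, against 2038, 956 and 1050.2 CPM in SD controls. Neither comparison passed for Mup7 (log2 fold change -1.43, edgeR adjusted p = 0.405 on HFD, and 1.38, edgeR adjusted p = 0.282 on SD). Of the 8 tested rows outside the members, 0 passed by edgeR on HFD and 0 had an unadjusted p under 0.05 (log2 fold changes -1.43 to 0.47). Over all genes tested, 2.7% passed on HFD, and 1.44% passed as higher on SD. On SD 3 rose, Mup14 (2.27, edgeR adjusted p = 0.0362), Mup6 (2.06, edgeR adjusted p = 0.0367) and Mup12 (1.65, edgeR adjusted p = 0.0310), and the 8 values ran from 0.92 to 2.27. Mup3 was thus the 1 row of the 14 tested that was lower in SD knockouts.

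Within a diet, Mup20, Mup4, Mup5 and Mup8 ran together and Mup3 against most of them. With log2 CPM centred on each diet's mean over 12 libraries, Mup4 and Mup5 had a Pearson r of 0.93, Mup4 and Mup20 0.86 and Mup5 and Mup20 0.81. Mup8 had an r of 0.85 with Mup4, 0.79 with Mup5 and 0.63 with Mup20, and Mup21 had 0.47 to 0.55 with these 4. Mup3 ran against Mup20 (r = -0.78), Mup4 (-0.59) and Mup5 (-0.54), and had an r of -0.14 with Mup8 and -0.03 with its closest relative Mup21. These are descriptions over 12 libraries that share the knockout contrast and, for similar sequences, possibly reads.

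Mup20 and Mup5 were higher on HFD than on SD in knockouts and in controls, Mup4 passed as higher in controls, and Mup3, Mup8 and Mup21 were lower on HFD in knockouts. Between HFD and SD knockouts 5 of 6 members passed, where 26.6% of all genes did (14.9% higher, 11.7% lower). Mup20 (log2 fold change 1.89 ± 0.44, edgeR adjusted p = 0.00516) and Mup5 (1.497 ± 0.27, edgeR adjusted p = 0.000807) were higher on HFD. Mup3 (-0.78 ± 0.24, edgeR adjusted p = 0.0264), Mup8 (-2.31 ± 0.64, edgeR adjusted p = 0.0143) and Mup21 (-0.64 ± 0.20, edgeR adjusted p = 0.0247) were lower. Mup4 had 0.64 ± 0.24 (edgeR adjusted p = 0.0612). The libraries of the 2 diets did not overlap for any of the 6 members, 3 higher and 3 lower on HFD, as for 52.7% of all genes (28.2% higher, 24.5% lower).

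Among these 5 calls, that for Mup5 held in all 19 alternatives. Without HFD knockout 1 the calls for Mup3 (-0.44, edgeR adjusted p = 0.290), Mup8 (-1.50, 0.107) and Mup21 (-0.68, 0.0972) were lost. Without HFD knockout 2 those for Mup20 (1.41, edgeR adjusted p = 0.0684) and Mup21 (-0.58, 0.130) were lost. Without SD knockout 1 the Mup3 and Mup21 calls went (edgeR adjusted p = 0.0796 and 0.0799), and without SD knockout 3 the Mup3, Mup8 and Mup21 calls (0.0577, 0.0635 and 0.0529). Mup4 passed without SD knockout 3, HFD control 2 or HFD knockout 1 and with no filter (edgeR adjusted p = 0.0442, 0.0445, 0.0267 and 0.0456).

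Between HFD and SD controls 3 of 6 members passed, all higher, where 30.1% of all genes passed and 16.5% passed as higher. They were Mup5 (log2 fold change 3.24 ± 0.34, 9.45-fold, edgeR adjusted p = 2.58e-06), Mup20 (2.74 ± 0.41, 6.66-fold, edgeR adjusted p = 0.000127) and Mup4 (1.86 ± 0.26, 3.64-fold, edgeR adjusted p = 6.72e-05). All 3 held in all 19 alternatives and were apart in every library, as were 37.2% of all genes (20.5% higher, 16.7% lower). Mup3 did not pass (-0.10 ± 0.20, edgeR adjusted p = 0.738), nor did Mup8 (0.86 ± 0.73, 0.405) or Mup21 (0.30 ± 0.16, 0.186). Mup21 passed without HFD control 4 (0.44, edgeR adjusted p = 0.0320). The summed members were 2.45-fold higher in HFD than in SD knockouts and 1.92-fold higher in HFD than in SD controls, as ratios of means with no test. These comparisons share the SD or HFD libraries with the knockout comparisons, and depth and ribosomal counts moved with diet as given above.

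**Figure D5:**
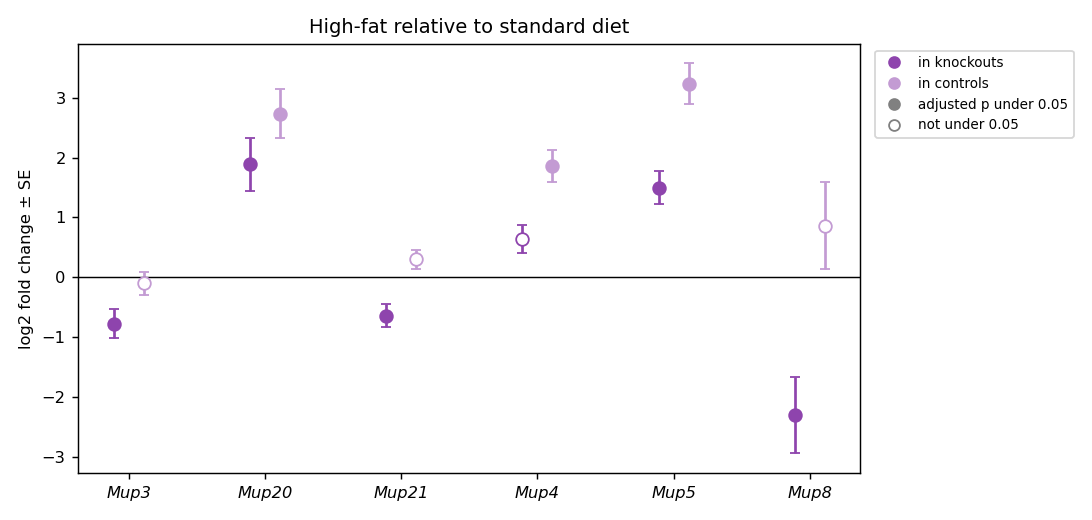
Points give the log2 fold change of HFD against SD for each member, in knockouts and in controls, with bars of 1 SE, and filled points have an adjusted p under 0.05. Mup20 and Mup5 are filled and above 0 in both, and Mup3, Mup21 and Mup8 are filled and below 0 in knockouts.

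Genes of pathways tied to MUP expression were looked at as lists, and a listed gene need not act on MUP genes itself. Of 12 tested genes of growth hormone receptor and STAT5 signaling, 0 passed by edgeR in HFD knockouts (1 with an unadjusted p under 0.05). In SD knockouts 1 was lower, Prlr, the prolactin receptor (log2 fold change -1.88, edgeR adjusted p = 0.00523), and 3 had an unadjusted p under 0.05. Averaged over the diets, 1 was higher and 1 lower, where 3% and 5.36% of all genes were. Of all genes tested, 2.7% passed in HFD knockouts, and in SD knockouts 1.44% were higher and 2.94% lower. The medians of this list were 0.00 on HFD and 0.01 on SD, against -0.01 and 0 for all genes. Of 14 tested regulators of sex-biased liver genes, 0 passed by edgeR in HFD knockouts (2 with an unadjusted p under 0.05). In SD knockouts 2 were higher and 1 lower, among them Foxa1, a pioneer factor of liver enhancers (0.76, edgeR adjusted p = 0.0191), and Cebpb, a liver transcription factor (-0.92, edgeR adjusted p = 0.0175).

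Most MUPs are male-biased, and of 18 other male-biased liver genes tested 5 were lower and 0 higher in HFD knockouts, among them Hsd3b5, a steroid dehydrogenase (log2 fold change -2.76, edgeR adjusted p = 0.0295), and Cyp4a12b, a fatty acid hydroxylase (-2.71, edgeR adjusted p = 0.0216). In SD knockouts 2 were higher and 0 lower, Ugt2b38, a glucuronosyltransferase (3.13, edgeR adjusted p = 0.0237), and Serpina12, which encodes vaspin (2.74, edgeR adjusted p = 0.0316). Of 9 other lipocalins, the MUPs' own superfamily, 2 were lower in HFD knockouts, Apom (-1.24, edgeR adjusted p = 0.0281) and C8g (-0.46, edgeR adjusted p = 0.0493), and 1 in SD knockouts, C8g (-0.56, edgeR adjusted p = 0.00955). Of 23 abundant secreted hepatocyte proteins, 1 was higher and 0 lower in HFD knockouts, and 5 were lower and 0 higher in SD knockouts. Beside the counts of these 3 lists, 1.66% of all genes tested were lower and 1.04% higher in HFD knockouts. In SD knockouts 2.94% of all genes were lower and 1.44% higher.

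Among markers of other cells (cholangiocyte, macrophage, endothelial, stellate, lymphocyte and exocrine gland lists), 0 genes passed by edgeR in either knockout comparison, while 4 had an unadjusted p under 0.05 in HFD knockouts and 6 in SD knockouts. Stellate and fibroblast markers were 3 of those on HFD and 4 on SD. Of all 12015 genes tested, 2.7% passed on HFD and 4.38% on SD, and 1687 and 2120 had an unadjusted p under 0.05. The stellate and fibroblast markers, 6 genes, had a summed level of 379 to 456 CPM in HFD knockouts, against 256 to 387 CPM in HFD controls, and 438 to 512 CPM in SD knockouts, against 332 to 392.3 CPM in SD controls. On average over the diets 3 of the 6 rose, where 3% of all genes tested were higher. The 5 cholangiocyte markers summed to 88.4 to 99.6 CPM in HFD knockouts, against 27.4 to 105 CPM in HFD controls, and to 64.7 to 197 CPM in SD knockouts, against 50.6 to 53.9 CPM in SD controls. Most of each sum was Spp1, with means of 85.4 CPM in HFD knockouts, 41.7 in HFD controls, 110 in SD knockouts and 44.0 in SD controls. The means of Krt19, Krt7, Epcam and Sox9 were lower in HFD knockouts than in HFD controls. On SD that of Krt19 was lower in knockouts and those of Krt7, Epcam and Sox9 were higher. The part of stellate cells, fibroblasts and cholangiocytes in the members' values was not tested. Of the exocrine gland markers, 3 of 4 (Amy2a5, Prss1 and Pnlip) were at 0 in every library, and the 4 genes together reached 9.17 to 46.1 CPM. In bulk liver, fewer cells of a type and less RNA per cell cannot be told apart.

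The genes whose level ran most like the summed members, by Pearson r of diet-centred log2 CPM over 12 libraries among 8933 genes, were Tpp1 (0.83), Serpinb6a (0.82), Tmem106a (0.81), Pyroxd2 (0.80) and Oasl1 (0.79). The most opposed were Tfam (-0.88), Gucd1 (-0.87) and Galnt1 (-0.87). For single members, looked up after the values were seen, Mup3 ran with Apon (0.97), Gnmt (0.97), Ang (0.96), Tspan31 (0.96) and Slc10a1 (0.96), and against Cyp2c55 (-0.97). Mup20 ran with Ugt2b38 (0.96), Rps6ka3 (0.96), Ntrk2 (0.94), Ifi27 (0.93) and Neat1 (0.93), and against Psma1 (-0.97). All these libraries share the knockout contrast, so the values describe likeness over the same 12 points.

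Genes next to the cluster were also looked at. Of the 3 nearest non-Mup genes with rows on each side, Inip, Snx30 and Slc46a2 before Mup4 and Zfp37, Slc31a2 and Fkbp15 after Mup21, 5 were tested. By edgeR 0 of them passed in either knockout comparison and 0 had an unadjusted p under 0.05. Over all genes tested 2.7% passed on HFD and 4.38% on SD, so 0 of 5 is near those shares. Their log2 fold changes were -0.13 to 0.33 on HFD and -0.46 to 0.75 on SD, with a smallest edgeR adjusted p of 0.391. Snx30 and Slc31a2 were lower in HFD than in SD controls (-0.69 and -0.43, edgeR adjusted p = 0.00333 and 0.0432), as were 13.6% of all genes tested. In that comparison Mup20, Mup4 and Mup5 were higher.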

How the data were processed

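Liver RNA was sequenced as 12 libraries (2 HFD knockouts, 4 HFD controls, 3 SD knockouts, 3 SD controls, grouped by their labels). The submitters' processing notes name build mm9 and the tools TopHat2 2.1.0, HTSeq and DESeq2 1.14.1. The authors deposited raw whole-number counts per gene symbol. Not given in the sources used here are strand, the handling of reads with several matches, and the annotation.

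The members and the gene lists were chosen with earlier results of these data known. All 6 members and the genes most like the summed members are named. Of each list, up to 4 genes with the smallest p could be named; for some lists only counts are given, and 1 list gene's result is not reported here. The test was edgeR's quasi-likelihood test, edgeR 4.0.16 under R 4.3.3 (TMM normalization, filterByExpr with a minimum count of 10, 4 group means over all 12 libraries), two-sided, with Benjamini-Hochberg adjustment over 12015 genes and a threshold of 0.05. The procedure was tested on simulated data. CPM uses normalized library sizes, means are ± SD, and log2 CPM for correlations has a prior count of 2 and needs a mean of 5 CPM. Lengths and windows come from GENCODE transcripts (GRCm38), which is not the authors' build, so no gene coordinates are given other than those of the RefSeq promoters. Alternatives were DESeq2 1.42.0, RLE scaling, no filter, only the groups compared, thinning to 2371167 counts, Mup rows left out of library sizes, the replicate number as a block, and each library left out. Depth limits the low members most: 3 counts are 0.358 CPM over the SD knockouts, 0.360 over the SD controls, 0.186 over the HFD knockouts and 0.0845 over the HFD controls, for counting error only.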

Additional observations from a re-analysis of the deposited data

Results flagged for a closer look

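Mup4 in HFD controls is set apart by 1 library. HFD control 2 had 10.1 CPM, against 13.8, 14.4 and 14.4 CPM in the other 3, a gap to the next library that is large for the group's range. Chance flags about 1 in 20 such groups. Without this library the calls of Mup4 on SD and between the diets in controls held, and the value between the diets in knockouts passed (log2 fold change 0.64, edgeR adjusted p = 0.0445).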

How the results depend on the processing

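Limits of depth weigh most on Mup8, Mup5 and Mup4, with 4 to 11 counts per SD control library, and the HFD knockouts are only 2 libraries. Leaving out 1 of them leaves a lone library that is assumed to vary like the other groups. Across single libraries left out, the number of members that passed ran from 1 to 5 in SD knockouts, 1 to 2 in HFD knockouts and 3 to 6 between the diets in knockouts. The number of genes ran from 220 to 655 in SD knockouts (526 in all libraries), 85 to 602 in HFD knockouts (325), 660 to 1222 averaged over the diets (1005), 0 to 4 for the difference between diets (0) and 1978 to 3249 between the diets in knockouts (3196). With no filter 518 genes and 2 members passed in HFD knockouts, and 17 genes for the difference. With only the groups compared 127 genes passed in HFD knockouts. For the difference DESeq2 called 30 genes. No pairing by replicate number is stated in the labels. Same-numbered knockout and control libraries correlated by 0.05, 0.04 and -0.01 on SD and 0.12 and 0.01 on HFD, which cannot show whether samples were paired. With the replicate block 1 gene passed for the difference, and Mup21 passed between the diets in controls (0.42, edgeR adjusted p = 0.0256).

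Values that turned sign were not called. Mup8 in HFD knockouts (-0.29) became 0.15 with the replicate block and 0.20 in thinned libraries, and ran from -2.70 to 0.51 with 1 library left out. Mup21 averaged over the diets (0.00) became -0.0076 with no filter, -0.052 with the replicate block, and ran from -0.064 to 0.072 with 1 library left out. Mup3 between the diets in controls (-0.10) ran from -0.207 to 0.061 with 1 library left out, the highest without HFD control 1. The log2 ratio of the summed members in SD knockouts, 0.10, became 0.46 over every Mup row, and with 1 library left out it ran from -0.011 to 0.17. In HFD knockouts that ratio, 0.45, ran from -0.018 to 0.80. The causes of these shifts were not tested.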

Other observations

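Female-biased liver genes, the counterpart of the male-biased MUPs, had 10 of 18 members with enough counts to be tested. Of those, 1 was higher in HFD knockouts, Cyp2a4, a steroid hydroxylase (log2 fold change 3.50, edgeR adjusted p = 0.0404, with overlapping groups). In SD knockouts 1 was lower, Prlr (-1.88, edgeR adjusted p = 0.00523), which is also counted in the growth hormone receptor and STAT5 list. Of all genes tested, 1.04% were higher in HFD knockouts and 2.94% lower in SD knockouts. The Cyp2a4 value rests on HFD knockout 1, with 35.6 CPM, since HFD knockout 2 had 1.00 CPM, against 0.23 to 3.54 CPM in HFD controls. Between the diets, female-biased genes were higher on HFD for 4 of 10 in knockouts and 3 of 10 in controls, where 14.9% and 16.5% of all genes tested were, Cyp2b9 among them (4.69 and 4.20, edgeR adjusted p = 0.00452 and 0.0103). Male-biased genes were lower on HFD for 11 of 18 in knockouts and 8 of 18 in controls, with 0 higher in both, where 11.7% and 13.6% of all genes were lower. Slco1a1, an organic anion transporter, fell by 1.84 in HFD knockouts and by 0.86 in HFD controls on the log2 scale (edgeR adjusted p = 8.98e-06 and 0.000880). Mup20, Mup4 and Mup5 were higher on HFD than on SD in controls, where those 8 male-biased genes were lower.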
